A study of Mus musculus with 4 samples.

Results

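The genes described are the nuclear-encoded subunits of the mitochondrial respiratory chain and ATP synthase, read from Cilia-deleted and Control growth plate cartilage of 7-day-old mice. They were chosen by name: every probe set with a single gene symbol of the Nduf (A, B, C, S and V series), Sdh, Uqcr, Cox (4 to 8) or Atp5 families, or of Cyc1 or Cycs, which gave 169 of the 45101 probe sets and 83 of the 18193 genes. By complex these are 33 genes of complex I, 4 of complex II, 9 of complex III, 17 of complex IV, 17 of complex V and the cytochrome c gene Cycs. Ndufa4 is counted with complex IV, where its protein is now placed, and 2 genes named after the families but not counted with any complex, Ndufa4l2 and Cox7a2l, are given apart. Another 9 probe sets carry a symbol of these families together with another symbol and entered no comparison. Ndufs6 and Ndufa11 are read only by such probe sets and are not among the 33 genes of complex I.

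The study asks which genes differ in proliferative chondrocytes when the primary cilium is missing. The Cilia-deleted group holds 2 arrays of Col2aCre;Ift88fl/fl mice, in which a Cre under Col2a control removes Ift88, a gene of the transport machinery that builds cilia, and the Control group holds 2 arrays of mice labelled wild-type. All mice were on a C57BL/6 background at postnatal day 7, and the labels do not say whether Control mice carried the Cre or the floxed allele. Proliferative-zone cartilage of the tibia and femur was cut with a needle from 40 µm sections, so a sample is dissected tissue and not sorted cells, and 50 ng of RNA went through 2 cycles of amplification before hybridisation to an Affymetrix mouse array.

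Each value is a log2 value from which the median of the same probe set over the 4 arrays has been taken away, so it says how an array stands relative to the others and gives no expression level. Where a gene has 1 probe set, the middle pair of arrays therefore lie equally far above and below 0. A gene with several probe sets is given by their mean, and the group difference is Cilia-deleted minus Control, tested with limma and with Benjamini-Hochberg adjustment over all genes. The smallest p that an exact permutation test of 2 arrays against 2 allows is 0.333, and the model, which pools the spread over genes, was the test used. In bulk tissue, fewer cells of a type and less RNA per cell cannot be told apart. Xist and Eif2s3y were the genes past an adjusted p of 0.05, 0.011% of all genes. Xist stood at -3.79 and -3.61 in Cilia-deleted arrays and at 3.58 and 3.74 in Control arrays, and in each of the comparisons that follow the difference these genes mark, that of sex, and the difference in genotype cannot be told apart. Both genes were named after their values were seen. Ift88 itself had a difference of 0.080 (SE 0.154), and which part of the gene its probe set reads was not analysed here. Of 14 cartilage markers listed, such as Col2a1 and Acan, 5 lay below 0 and the median difference was 0.033. Whether they are expressed cannot be read from values that hold no level.

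The respiratory chain passes electrons from NADH through complex I, or from succinate through complex II, to ubiquinone, on through complex III and cytochrome c to complex IV, which reduces oxygen. The protons pumped on the way drive complex V, the ATP synthase. Each complex except complex II joins nuclear-encoded subunits with a few encoded in mitochondrial DNA. Growth plate cartilage has no blood vessels, and its chondrocytes are known for a metabolism that leans on glycolysis.

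Many promoters of these genes are known to hold sites for nuclear respiratory factor 1 (NRF-1), for the ETS-type factor NRF-2, for Sp1 and for CCAAT-binding factors. Since most members stood on the same side of 0 in the comparison given further on, the 200 bases before the annotated start are shown for the member of largest difference in each complex whose listed promoter lies at the outer end of its gene. Cox8b, a muscle isoform of complex IV with a difference near 0, is shown beside them. The sequences are from RefSeq (GRCm38.p6), run 5′ to 3′ on the strand of the gene, and capitals mark the matches to the letters searched: GCATGCG for NRF-1, CCGGAAG for ETS, GGGCGG for Sp1, CCAAT, and TATAAA, each on both strands. The windows are chrX:37191239-37191438, minus strand for Ndufa1; chr4:140961071-140961270, plus strand for Sdhb; chr4:116075071-116075270, minus strand for Uqcrh; chr7:30626115-30626314, minus strand for Cox6b1; chr2:174464102-174464301, minus strand for Atp5e; and chr7:140900447-140900646, minus strand for Cox8b.
Ndufa1: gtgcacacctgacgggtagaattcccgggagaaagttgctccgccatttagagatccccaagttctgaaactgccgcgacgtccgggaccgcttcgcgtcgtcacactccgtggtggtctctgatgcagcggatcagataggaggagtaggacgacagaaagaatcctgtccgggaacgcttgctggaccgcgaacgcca
Sdhb: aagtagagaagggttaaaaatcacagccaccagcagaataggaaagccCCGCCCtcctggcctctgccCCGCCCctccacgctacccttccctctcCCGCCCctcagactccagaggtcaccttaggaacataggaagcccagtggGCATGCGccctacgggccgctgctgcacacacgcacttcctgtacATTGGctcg
Uqcrh: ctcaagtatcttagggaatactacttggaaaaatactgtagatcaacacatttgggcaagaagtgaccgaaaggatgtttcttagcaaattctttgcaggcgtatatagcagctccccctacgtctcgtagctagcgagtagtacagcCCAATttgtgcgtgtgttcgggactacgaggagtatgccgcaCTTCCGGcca
Cox6b1: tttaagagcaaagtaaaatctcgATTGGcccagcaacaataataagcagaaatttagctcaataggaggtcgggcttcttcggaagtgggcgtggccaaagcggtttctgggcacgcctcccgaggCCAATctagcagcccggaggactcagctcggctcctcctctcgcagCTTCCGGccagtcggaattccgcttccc
Atp5e: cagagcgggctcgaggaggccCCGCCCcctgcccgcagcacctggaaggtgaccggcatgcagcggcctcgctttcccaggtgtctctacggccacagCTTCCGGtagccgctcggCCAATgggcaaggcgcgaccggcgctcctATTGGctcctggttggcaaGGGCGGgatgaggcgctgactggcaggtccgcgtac
Cox8b: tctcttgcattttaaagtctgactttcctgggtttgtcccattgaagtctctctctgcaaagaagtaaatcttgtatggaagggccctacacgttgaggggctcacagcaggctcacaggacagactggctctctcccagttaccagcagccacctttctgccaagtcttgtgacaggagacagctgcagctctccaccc

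In the window of Sdhb the NRF-1 letters began 54 bases before the start, with 3 Sp1 boxes farther out. The ETS letters began 10 bases before the start in Uqcrh, 28 in Cox6b1 and 102 in Atp5e. The windows of Ndufa1 and Cox8b held none of the letters searched, which says nothing of the factors themselves. Of the 83 members 67 had a promoter in the table. In the 250 bases before the start the NRF-1 letters were found in 8 of these 67 (11.9%), against 3.06% of all 27025 genes listed and 3.79% of the 17492 protein-coding ones. The ETS letters were found in 11 (16.4%), against 7.07% of all and 9.15% of protein-coding genes. For the CCAAT letters the shares were 43.3% of members, 34.5% of all and 36.5% of protein-coding genes. The Sp1 letters stood in 35.8% of members, 33.0% of all and 42.7% of protein-coding genes, and the TATA letters in 10.4%, 13.0% and 12.4%. The 8 members with the NRF-1 letters were Ndufa6, Ndufa8, Sdhb, Cox6a1, Cycs, Atp5g2, Atp5k and Atp5l. Median differences of members with and without the letters were -0.35 and -0.25 for NRF-1, -0.48 and -0.25 for ETS, -0.32 and -0.25 for Sp1, -0.29 and -0.26 for CCAAT, and -0.32 and -0.25 for TATA. All 5 pairs of medians thus ran the same way with both Control arrays, and no difference between them was tested. They were not taken without Control 1. Of the 7 members with the TATA letters, Ndufa3 stood at -0.24 in that setting, Ndufb7 at -0.21 and Ndufs7 at -0.16. Atp5md was at -0.038 there, Atp5l at -0.037, Cox7b2 at -0.031 and Ndufa7 at 0.0067. The median over all 83 members was -0.152 without Control 1. The NRF-1 and ETS letters occur together in some promoters, as in those of Cox6a1 and Atp5l.

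Respiratory chain genes stood lower in Cilia-deleted than in Control arrays nearly throughout, and no single member passed the test. Of the 83 members 76 had a difference below 0, against 51.9% of all genes. The median difference was -0.258 on the log2 scale over the members and -0.007 over all genes. In 52 members both Cilia-deleted arrays lay below both Control arrays, 62.7% of them, where 18.6% of all genes did so. The opposite order, both Cilia-deleted arrays above both Control arrays, was found in 1 member, Cox4i2, against 14.7% of all genes. None of the 83 passed at an adjusted p of 0.05, against 0.011% of all genes, and the smallest adjusted p was 0.374 (limma). At an unadjusted p under 0.05 there were 20 members, all lower, against 3.68% of all genes that were lower with such a p and 2.29% that were higher.

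In signed medians over the members the Control arrays differed between themselves by as much as the groups did, and the Cilia-deleted arrays by less. Control 1 was the highest array in 70 of the 83 members, against 32.4% of all genes, and stood above Control 2 in 74 members, against 48.4% of all genes. The median difference between Control 1 and Control 2 was 0.302, larger than the median group difference in size. Cilia-deleted 2 was the lowest array in 49 members, against 25.1% of all genes. Cilia-deleted 1 stood above Cilia-deleted 2 in 52 members, with a median difference between them of 0.082. Gaps of opposite sign offset each other in that median. Single members differed by more in either direction, as Atp5b by 0.54 and Cox7a2 by -0.41. Set against Control 2 alone, the Cilia-deleted mean was below in 69 of 83 members, against 55.8% of all genes, with a median of -0.152. Against Control 1 alone the median was -0.404. In 31 members the difference was below 0 and larger in size than both within-group differences, which was so for 11.7% of all genes.

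**Figure D1:**
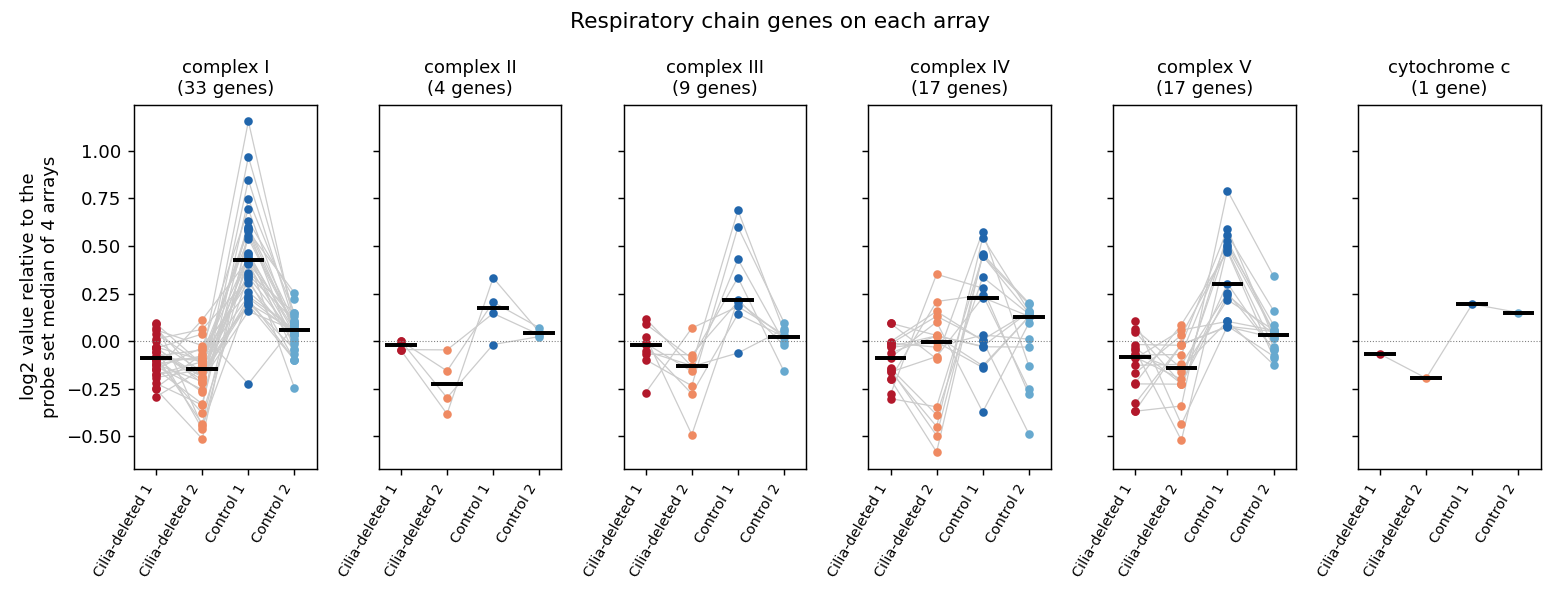
Log2 value relative to the probe set median of the 4 arrays (vertical axis) for each gene (points joined by grey lines) on each array, in a panel for each complex and for cytochrome c; black bars are medians over genes. Control 1 has the highest median in all 5 complexes, 0.43 in complex I, and Control 2, at 0.056 there, lies between it and the Cilia-deleted arrays.

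Complex I, the entry point for electrons from NADH, had the most members and a median difference of -0.353. Its 33 genes stood at medians of -0.090 and -0.149 in Cilia-deleted 1 and 2, against 0.429 and 0.056 in Control 1 and 2. Of them 32 lay below 0, against 51.9% of all genes. In 24 (72.7%) Cilia-deleted was lower with arrays that did not overlap, against 18.6% of all genes. The median was -0.177 without Control 1 and -0.577 without Control 2. The 6 core subunits measured, which form the conserved catalytic part, had a median of -0.290, and the 27 accessory subunits of -0.426. Without Control 1 these medians lay close together, at -0.154 for the core and -0.182 for the accessory subunits.

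Ndufa1, a small membrane-arm subunit needed to assemble the complex (X, 37187588 to 37191238, GRCm38.p6), had -0.25 and -0.51 in Cilia-deleted arrays, against 0.58 and 0.25 in Control arrays. The arrays did not overlap, and the difference was -0.80 (SE 0.172, 95% interval -1.22 to -0.38, adjusted p = 0.482, limma). Ndufa1 lies on the X chromosome, as does Ndufb11, at -0.25 and at -0.095 without Control 1. Ndufa13, an accessory subunit known also as GRIM-19, had -0.22 and -0.34 in Cilia-deleted arrays, against 0.63 and 0.22 in Control arrays. Its difference was -0.71 (SE 0.174), and it exceeded the gap within either group. Ndufa13 was read by 1 probe set, and the 2 that name it together with Yjefn3 had overlapping arrays, at 0.18 and -0.30.

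Ndufb3, an accessory subunit of the membrane arm, had -0.13 and -0.26 in Cilia-deleted arrays, against 0.97 and 0.13 in Control arrays. Control 1 alone stood far from the rest, and the difference of -0.74 (SE 0.275) was -0.33 without it. The same held for Ndufa6, an accessory subunit of the matrix arm, with -0.10 and -0.091 in Cilia-deleted arrays, against 1.15 and 0.091 in Control arrays. Its difference was -0.72 (SE 0.334) with both Control arrays and -0.19 without Control 1. Ndufs5, an accessory subunit despite its name, had -0.15 and -0.33 in Cilia-deleted arrays, against 0.75 and 0.15 in Control arrays, a difference of -0.69 (SE 0.22) that was -0.39 without Control 1.

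Among the core subunits, Ndufs8, which binds iron-sulfur centres, had a difference of -0.47 (SE 0.162), as the mean of 6 probe sets that ran from -0.995 to 0.082. The flavin-binding Ndufv1 was at -0.24 (SE 0.132), and Ndufs1, the largest subunit, at -0.25 (SE 0.14). Ndufs1 and Ndufv1 moved to -0.15 and -0.19 without Control 1. Ndufs3 was at -0.26 with overlapping arrays, and at 0.0054 without Control 1. The smallest difference of the complex was that of the accessory subunit Ndufa12, at -0.062 (SE 0.161), with 0.091 and -0.12 in Cilia-deleted arrays and 0.19 and -0.099 in Control arrays. Ndufb4 was the only member of complex I above 0, at 0.071 (SE 0.153). It was read by 1 probe set, of the class described further on that was lower in brightness or could not be placed. The 2 probe sets that Ndufb4 shares with other symbols were at -0.46 and -0.44.

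Complex II, succinate dehydrogenase, is the one complex made of nuclear-encoded subunits alone, and it also serves the citrate cycle. Its 4 genes had a median difference of -0.184, with array medians of -0.022 and -0.227 in Cilia-deleted 1 and 2, against 0.175 and 0.041 in Control 1 and 2. The median was -0.297 without Cilia-deleted 1. Sdhb, the iron-sulfur subunit, had -0.048 and -0.38 in Cilia-deleted arrays, against 0.33 and 0.048 in Control arrays, with a difference of -0.41 (SE 0.177, adjusted p = 0.85, limma). The membrane anchors were at -0.22 (Sdhd, SE 0.136) and -0.15 (Sdhc, SE 0.15). Sdha, the flavoprotein, was at -0.14 (SE 0.126), with -0.044 and -0.046 in Cilia-deleted arrays and 0.15 and 0.034 in Control arrays. The probe sets of Sdhc disagreed, at -0.48 and 0.18, its arrays overlapped, and its difference was -0.0021 without Cilia-deleted 2. In the other 3 genes the arrays did not overlap and Cilia-deleted was lower, as in 18.6% of all genes.

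Complex III, which moves electrons from ubiquinol to cytochrome c, had 9 of 9 members below 0, against 51.9% of all genes. In 5 of them (55.6%) the arrays did not overlap, against 18.6% of all genes that were lower in this way. The median difference was -0.232, which was -0.135 without Control 1 and -0.359 without Cilia-deleted 1. The 5 small subunits had a median of -0.298. The 4 larger ones, the core proteins Uqcrc1 and Uqcrc2, cytochrome c1 and the Rieske protein Uqcrfs1, had a median of -0.160. Without Control 1 the medians were -0.135 for the small and -0.121 for the larger subunits.

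Uqcrh, the hinge protein that helps cytochrome c1 meet cytochrome c, had -0.098 and -0.23 in Cilia-deleted arrays, against 0.60 and 0.098 in Control arrays. The difference was -0.51 (SE 0.195, adjusted p = 0.82, limma), and -0.26 without Control 1. Uqcr11 had -0.053 and -0.13 in Cilia-deleted arrays, against 0.69 and 0.053 in Control arrays. Its difference of -0.46 (SE 0.223) was -0.14 without Control 1, the array that stood apart. Uqcrb, which takes part in ubiquinone binding, was at -0.30 (SE 0.181) and at -0.081 without Control 1. Cyc1, the cytochrome c1 gene, was at -0.23 (SE 0.147), with -0.023 and -0.28 in Cilia-deleted arrays and 0.14 and 0.023 in Control arrays, and it was at -0.11 without Cilia-deleted 2. Uqcrc1 was the member of complex III nearest to 0, at -0.0079 (95% interval -0.37 to 0.35). Its arrays overlapped, at 0.12 and -0.13 in Cilia-deleted and -0.062 and 0.062 in Control.

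Cytochrome c, the soluble carrier between complexes III and IV and a trigger of apoptosis when released, is encoded in somatic cells by Cycs. Cycs had -0.068 and -0.19 in Cilia-deleted arrays, against 0.19 and 0.15 in Control arrays. The Control arrays lay close together here, and the difference of -0.30 (SE 0.128, adjusted p = 0.83, limma) was -0.28 without Control 1. All 4 of its probe sets lay below 0, between -0.43 and -0.12.

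**Figure D2:**
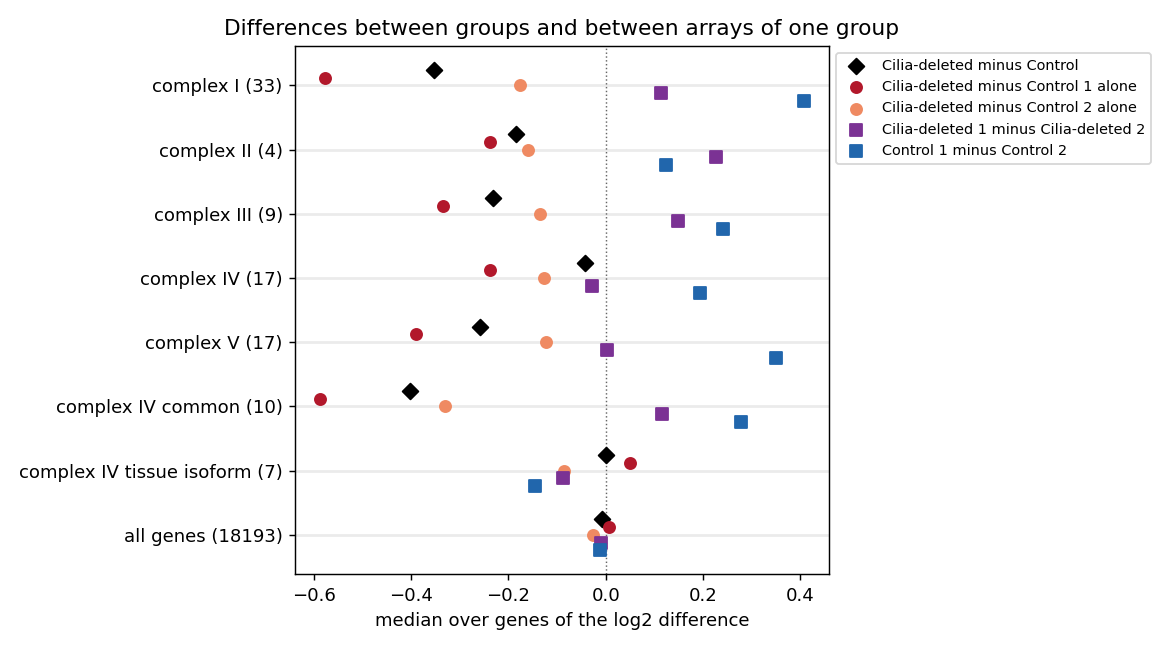
Median over the genes of each complex, of the common and tissue forms of complex IV, and of all genes (number of genes in brackets) of 5 log2 differences: Cilia-deleted minus Control, Cilia-deleted minus each Control array alone, and the arrays of each group minus each other. For complex I the Control arrays differ by 0.41 while the groups differ by -0.353, and for the tissue forms of complex IV the group difference is 0.001.

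Complex IV, cytochrome c oxidase, held common subunits with differences from -0.72 to 0.32 and a set of tissue forms near 0. Its catalytic core is encoded in mitochondrial DNA, and several nuclear subunits exist in a common form and in a form of heart and muscle, lung or testis. Over all 17 genes the median difference was -0.042, with 11 (64.7%) below 0, against 51.9% of all genes. In 7 (41.2%) Cilia-deleted was lower with arrays that did not overlap, against 18.6% of all genes. Over the 10 common subunits the median was -0.403, with 8 below 0, and without Control 1 these stood at a median of -0.330. The 7 tissue forms had a median of 0.001, with 3 below 0, and of -0.086 without Control 1. That split was made with the values already known and was not tested. By the guess of brightness described further on, the probe sets of Cox4i1, Cox5a, Cox6a1, Cox6b1, Cox6c, Cox7a2 and Ndufa4 had values of 8 or more. Of the other common subunits, Cox7c had values of 4 to 8, and the probe sets of Cox5b and Cox8a fell in differing classes. Those of Cox4i2, Cox6b2 and Cox8b had values of 4 to 8, and those of Cox7a1 and Cox7b2 were lower or not placed. Cox6a2 was placed at 8 or more, and Cox8c in both upper classes. The part of brightness in the split was not tested.

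Cox5a, the common subunit of largest difference, had -0.20 and -0.58 in Cilia-deleted arrays, against 0.46 and 0.20 in Control arrays. The difference was -0.72 (SE 0.181, 95% interval -1.17 to -0.27, adjusted p = 0.635, limma), and its 3 probe sets lay between -0.82 and -0.63. Cox6c had -0.30 and -0.35 in Cilia-deleted arrays, against 0.45 and 0.19 in Control arrays. Its difference was -0.64 (SE 0.143, adjusted p = 0.503, limma) and was -0.52 without Control 1. Both genes thus stood apart by group also against Control 2 alone.

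Cox6b1, which faces the cytochrome c side of the enzyme, had -0.16 and -0.45 in Cilia-deleted arrays, against 0.54 and 0.16 in Control arrays, a difference of -0.65 (SE 0.186). Its testis form Cox6b2 had -0.28 and 0.35 in Cilia-deleted arrays, against 0.28 and -0.28 in Control arrays. Its difference was 0.036 (SE 0.275), and the arrays overlapped. Cox6a1 had -0.15 and -0.50 in Cilia-deleted arrays, against 0.45 and 0.15 in Control arrays, a difference of -0.62 (SE 0.181). The heart and muscle form Cox6a2 had -0.014 and 0.13 in Cilia-deleted arrays and 0.0074 and 0.15 in Control arrays, and its difference was -0.022 (SE 0.136).

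Cox4i1, the common form of the regulatory subunit 4, had -0.14 and -0.39 in Cilia-deleted arrays, against 0.34 and 0.14 in Control arrays, a difference of -0.50 (SE 0.152). Cox4i2, the form known from lung and from low oxygen, had 0.094 and 0.030 in Cilia-deleted arrays, against -0.030 and -0.031 in Control arrays. Its difference of 0.092 (SE 0.123, adjusted p = 0.996, limma) was small beside its error although the arrays did not overlap. For subunits 7a and 8 the common forms too had differences smaller than their errors. Cox7a2 was at 0.010 (SE 0.223) and the muscle form Cox7a1 at -0.080 (SE 0.135). Cox8a was at -0.014 (SE 0.145), the muscle form Cox8b at 0.0012 (SE 0.144) and the testis form Cox8c at 0.15 (SE 0.19). Cox7b2, another testis form, was at -0.042 (SE 0.122).

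Cox7c was the common subunit with the largest difference above 0. It had -0.0029 and 0.16 in Cilia-deleted arrays, against 0.0029 and -0.49 in Control arrays, a difference of 0.32 (SE 0.194, adjusted p = 0.924, limma). Control 2 was the array apart, and without it the difference was 0.074. Ndufa4 had 0.094 and -0.094 in Cilia-deleted arrays, against 0.58 and -0.13 in Control arrays, with a difference of -0.22 (SE 0.245) that turned to 0.13 without Control 1.

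**Figure D3:**
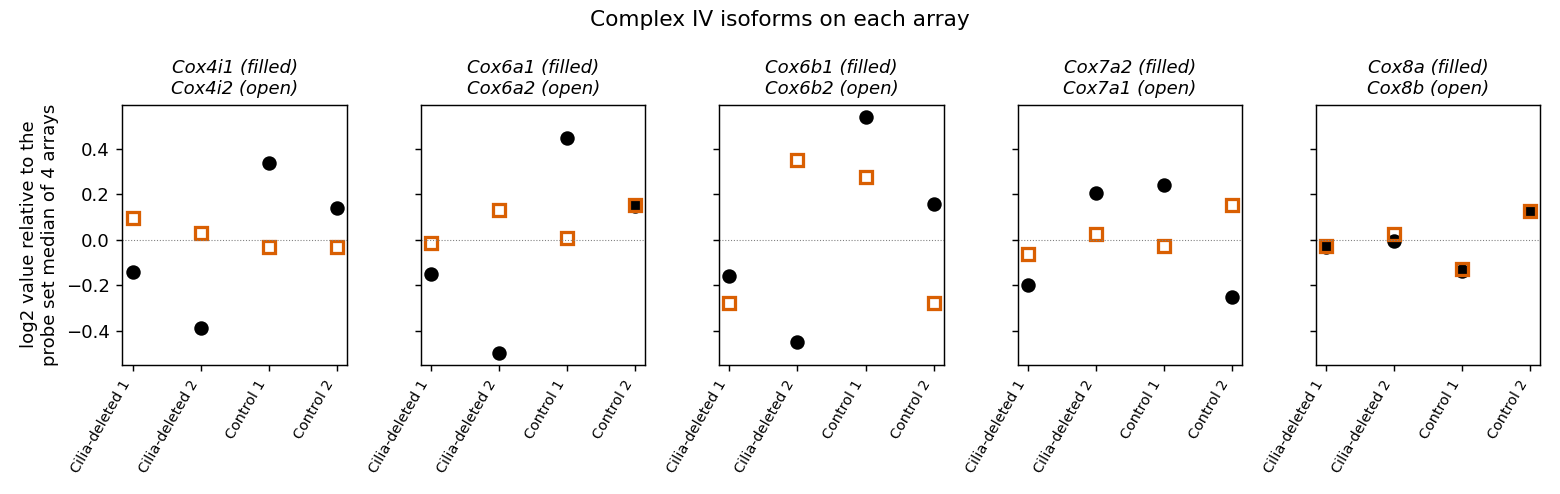
Log2 value relative to the probe set median on each array (vertical axis) for 5 subunits of complex IV in the common form (filled circles) and a tissue form (open squares). Cox4i1, Cox6a1 and Cox6b1 stand lower in both Cilia-deleted arrays than in both Control arrays, while their tissue forms Cox6a2 and Cox6b2 overlap and Cox4i2 lies in the opposite order.

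Complex V makes ATP in its F1 head as protons turn the c ring in the membrane. All 17 members lay below 0, with a median difference of -0.258 that was -0.122 without Control 1 and -0.390 without Control 2. In 11 (64.7%) the arrays did not overlap, against 18.6% of all genes that were lower in this way. The array medians were -0.085 and -0.143 in Cilia-deleted 1 and 2, against 0.303 and 0.035 in Control 1 and 2. Medians by part were -0.229 for the 5 subunits of F1, -0.215 for the 3 genes of the c ring and -0.323 for the 9 of the peripheral stalk and the rest of the membrane part. Without Control 1 they were -0.086, -0.073 and -0.209 in the same order.

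Atp5e, the epsilon subunit at the foot of the F1 central stalk (2, 174461075 to 174464101, GRCm38.p6), had the largest difference of all counted subunits. It had -0.37 and -0.34 in Cilia-deleted arrays, against 0.79 and 0.34 in Control arrays. The arrays did not overlap, and the means were 1.89-fold apart, or -0.92 on the log2 scale (SE 0.179, adjusted p = 0.417, limma), with a 95% interval from -1.36 to -0.48. Against Control 2 alone it was -0.70. The catalytic head itself differed less, with the alpha subunit Atp5a1 at -0.031 (SE 0.151) and the beta subunit Atp5b at -0.17 (SE 0.205), both with overlapping arrays. Without Control 1 Atp5a1 was at 0.083, and without Cilia-deleted 2 Atp5b was at 0.11. The probe sets of Atp5a1 ran from -0.18 to 0.23.

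The peripheral stalk, which holds the head still, had Atp5h (subunit d) at -0.22 and -0.23 in Cilia-deleted arrays, against 0.56 and 0.16 in Control arrays. Its difference was -0.59 (SE 0.169) and exceeded the gap within either group. Atp5pb (subunit b) had -0.048 and -0.52 in Cilia-deleted arrays, against 0.49 and 0.048 in Control arrays, a difference of -0.55 (SE 0.226). Atp5j (coupling factor 6) was at -0.44 (SE 0.177), and at -0.23 without Control 1. The c subunit is made by 3 genes whose mature proteins are identical. Atp5g3 was at -0.27 (SE 0.147), Atp5g1 at -0.21 (SE 0.178) and Atp5g2 at -0.097 (SE 0.13), and only in Atp5g3 of these did the arrays not overlap. Atp5g3 moved to -0.16 and Atp5g1 to -0.040 without Control 1, and Atp5g2 to -0.022 without Cilia-deleted 1.

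**Figure D4:**
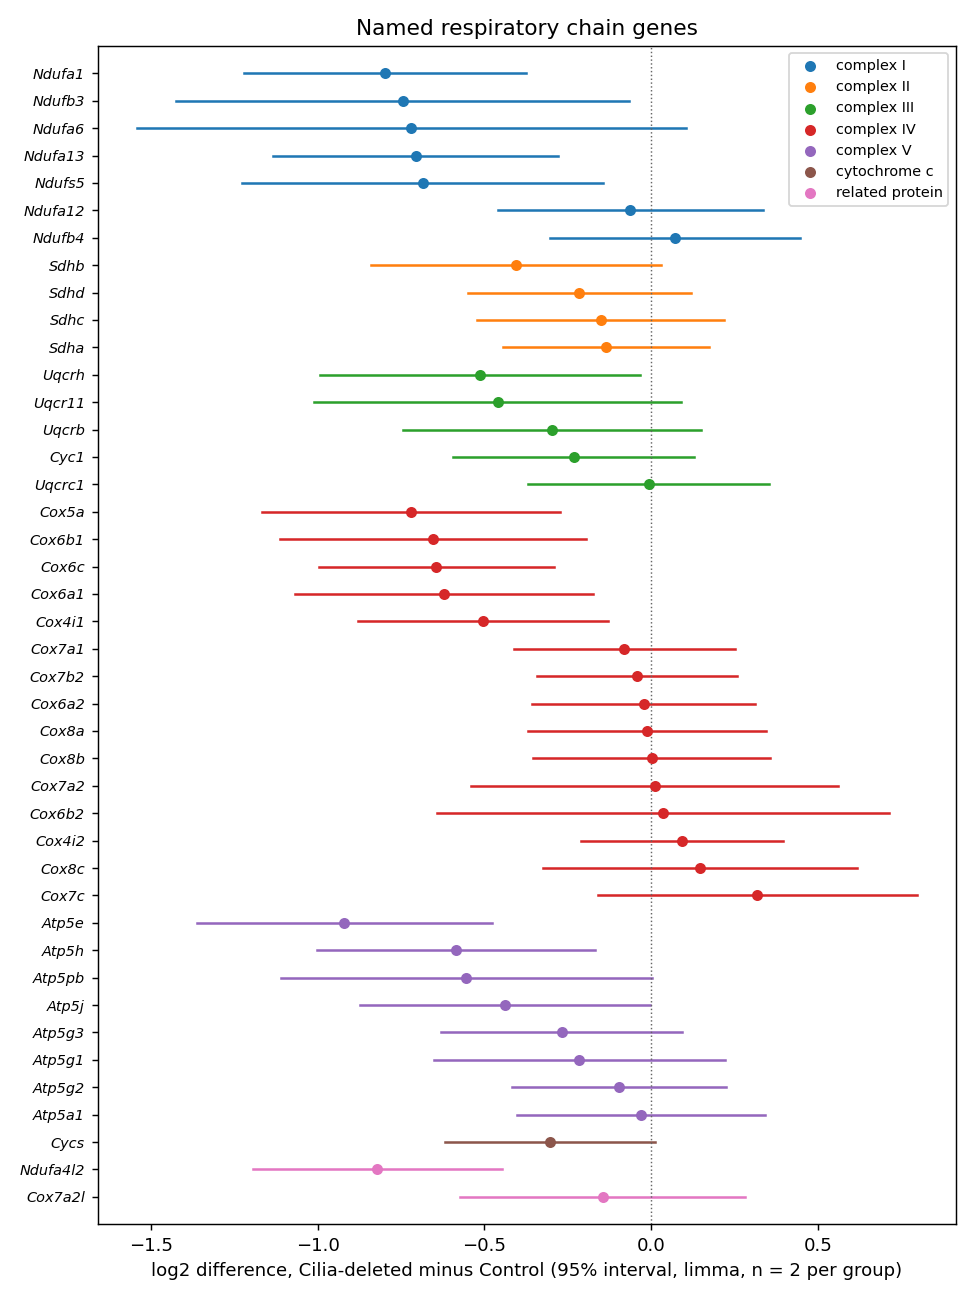
Log2 difference, Cilia-deleted minus Control (points), with its 95% interval from limma (lines, n = 2 per group) for the named genes, grouped and coloured by complex. Intervals that lie wholly below 0, before any adjustment for the number of genes, belong to Ndufa1, Ndufb3, Ndufa13, Ndufs5, Uqcrh, Cox5a, Cox6b1, Cox6c, Cox6a1, Cox4i1, Atp5e, Atp5h, Atp5j and Ndufa4l2, and none lies wholly above 0.

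Of the 2 related genes, Ndufa4l2, a paralogue of Ndufa4 that is induced by the hypoxia factor HIF-1, had the smallest adjusted p of all 83. It had -0.31 and -0.44 in Cilia-deleted arrays, against 0.31 and 0.59 in Control arrays, a difference of -0.82 (SE 0.151, adjusted p = 0.374, limma). Here Control 2 was the higher Control array, unlike in most subunits, and the difference without Control 1 was -0.96. Cox7a2l, which helps join complexes III and IV, was at -0.15 (SE 0.174) and at 0.065 without Control 1.

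The probe sets of one gene did not always read alike. Of the 49 members with several probe sets 33 had all of them below 0, 2 had all above and 14 had both signs. The fine steps of the deposited values allow a rough guess of brightness, since single-precision numbers of 8 or more fall on coarser steps than smaller ones. By this guess 114 of the 169 member probe sets (67.5%) had original values of 8 or more, against 25.0% of all probe sets, 44 had values of 4 to 8, and 11 were lower or could not be placed. The guess is coarse, since dimmer values meet the coarser steps in part. The brightest class had a median difference of -0.314, with 106 of 114 below 0, and the middle class of -0.158, with 31 of 44 below 0. The shares given for all genes were not taken over genes of like brightness. With probe sets placed at 8 or more only, 627 of 6835 genes had an unadjusted p under 0.05 (limma). With all probe sets it was 1085 of 18193.

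Other mitochondrial genes were described from lists. Of 27 genes of protein import, carriers and inner membrane organisation 24 lay below 0, with a median of -0.206, 14 of them (51.9%) lower and 0 higher with arrays apart, against 18.6% lower and 14.7% higher of all genes. Timm13 (-0.78, SE 0.235) and Timm8b (-0.68, SE 0.196), small chaperones of the intermembrane space, had the largest differences, which were -0.52 and -0.43 without Control 1. Of 22 genes of the citrate cycle and pyruvate oxidation 21 lay below 0 (median -0.191), with 6 (27.3%) lower and 0 higher with arrays apart, and with Idh3g, a subunit of isocitrate dehydrogenase, at -0.50 (SE 0.241) and the pyruvate carrier Mpc1 at -0.44 (SE 0.185). Without Control 1 Idh3g was at -0.25 and Mpc1 at -0.24. Without Control 1 the median was -0.107 for the import list and -0.076 for the citrate cycle list. Of 41 assembly factors of the chain 29 lay below 0 (median -0.100), 10 (24.4%) lower and 2 (4.88%) higher with arrays apart, with Surf1, an assembly factor of complex IV, at -0.58 (SE 0.205) and Ndufaf6 at -0.54 (SE 0.305). The arrays of Ndufaf6 overlapped, and without Control 1 it was at -0.12. The median of the assembly factors was 0.012 without Control 1. None of these genes passed (limma, adjusted over all genes), against 0.011% of all genes.

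The 27 regulators of mitochondrial biogenesis were divided in sign, with 13 below 0 and a median of 0.0066. In 4 (14.8%) the arrays were lower without overlap and in 2 (7.41%) higher, shares below the 18.6% and 14.7% of all genes. Polg2, the accessory subunit of the mitochondrial DNA polymerase, was at 0.56 (SE 0.175) and the deacetylase Sirt3 at -0.39 (SE 0.146), which was -0.26 without Control 1. The best-known regulators, named in addition to the rule, had differences of -0.19 to 0.076: Ppargc1a at -0.19 (SE 0.149), Nrf1 at -0.14 (SE 0.131), Gabpa at 0.076 (SE 0.2), Tfam at -0.060 (SE 0.232) and Esrra at 0.060 (SE 0.125). None of the 27 passed (limma).

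Other measures moved with the arrays in part. Skeletal muscle, a tissue rich in mitochondria, lies beside the cartilage, and of its 18 markers 17 lay below 0 with a median difference of -0.171, led by Tnni2 (-1.96, SE 0.155) and Tnnc2 (-1.08, SE 0.128). In 6 of the 18 (33.3%) the arrays were lower without overlap, against 18.6% of all genes, and in 0 higher. The smallest adjusted p of the list was 0.067, that of Tnni2 (limma). Tnni2 had -0.86 and -1.14 in Cilia-deleted arrays, against 1.05 and 0.88 in Control arrays, and Tnnc2 had -0.63 and -0.50 in Cilia-deleted arrays, against 0.52 and 0.50 in Control arrays. In both, as in most respiratory chain genes, Control 1 was the highest array. It was so in 5 of the 18 markers and Control 2 in 12, and the list's array medians were -0.070 and -0.041 in Cilia-deleted 1 and 2, against -0.033 and 0.233 in Control 1 and 2. The muscle forms Cox6a2, Cox7a1 and Cox8b had the differences near 0 given above, and in each Control 2 was the highest array. The only probe set of Cox7a1 was among those lower or not placed in brightness, and those of Cox6a2 were at -0.16 and 0.12. Markers of osteoclasts and macrophages stood lowest in Control 1, with a median of -0.348, and those of erythroid and marrow cells likewise, with -0.241. Endothelial markers had -0.249 there. Of these lists 0 of 9 osteoclast, 0 of 9 marrow and 0 of 7 endothelial markers were lower with arrays apart, against 18.6% of all genes. Higher with arrays apart were 1 osteoclast, 0 marrow and 1 endothelial marker, against 14.7% of all genes. The 7 bone markers had a median difference of -0.128 and the 5 fat markers of -0.097. In each list 2 were lower with arrays apart (28.6% and 40%) and 0 higher. The bone markers stood at medians of 0.453 and -0.61 in Cilia-deleted 1 and 2, against -0.104 and 0.277 in Control 1 and 2. Cilia-deleted 2, the array lowest in 49 of the 83 respiratory chain genes, was the lowest in 7 of 7 bone markers. The array's own RNA quality probe sets were centred like the rest, so their 3′ minus 5′ values compare arrays and give no absolute ratio. That of Actb was -0.10 and -0.14 in Cilia-deleted arrays, against 0.10 and -0.047 in Control arrays. That of Gapdh was -0.066 and -0.40 in Cilia-deleted arrays, against -0.18 and 0.066 in Control arrays. The part of these in the respiratory chain differences was not tested.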

How the data were processed

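Gene expression was measured on 4 Affymetrix mouse arrays, 2 Cilia-deleted and 2 Control. The authors deposited log2 values made by RMA, per the submitters' processing notes (version not given in the sources used here), with each probe set centred on its median over the 4 arrays, as the values show (largest departure 5e-07). The log base is inferred from the values. Of 45037 probe sets other than 64 controls, 34945 name 1 symbol by the platform annotation, and 34741 of these took the symbol and coordinates of RefSeq (GRCm38.p6). Probe sets were averaged per gene, and groups compared with limma 3.58.1 (lmFit, eBayes, no trend, two-sided) under R 4.3.3 on all 18193 genes. The code of the fit was run on simulated independent genes without array effects, which says nothing of the calls in these data. The files used hold no background signal, so probe sets were not filtered on it, and the number of arrays limits the precision. The design names biological replicates.

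The members and lists were chosen with earlier results of these data known. Named by rule were, per complex, the members of largest difference with arrays apart (5 in complex I, 4 in others, all of complex II and Cycs), the one nearest to 0, up to 2 of opposite sign, complex IV isoforms, c ring genes, and 2 genes per pathway list. Other genes given (Xist, Eif2s3y, core subunits of complex I, Ndufb11, Atp5b, Ndufa4, muscle markers) were chosen after their values were seen. Alternatives were renewed quantile normalization, array centring, single probe sets, no or robust moderation, the replicate block and a threshold of 0.1. Others left out each array, genes on X and Y, or probe sets whose names end in _x_at, _s_at or _a_at.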

Additional observations from a re-analysis of the deposited data

How the results depend on the processing

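No respiratory chain gene passed under any alternative run, including each array left out, renewed quantile normalization, no moderation, single probe sets and a threshold of 0.1. Over all genes 2 passed, against 14 with renewed quantile normalization, 20 probe sets tested singly, 1 with no moderation, 0 with genes on X and Y left out (limma, 1052 at an unadjusted p under 0.05), 11 at the threshold of 0.1, 6 with probe sets placed at 8 or more only, and 2 to 56 with 1 array left out (56 without Cilia-deleted 1, 38 without Cilia-deleted 2), where the lone array of a group is assumed to vary like the others. The replicate number as a block gave 1 gene, and same-numbered arrays deviated together only weakly (correlation 0.139 over genes), so the numbers were not taken as pairs. The median of every complex stayed below 0 throughout. With 1 array left out it ran from -0.577 to -0.177 for complex I, -0.359 to -0.135 for complex III and -0.237 to -0.036 for complex IV. Complex IV was at -0.403 without tissue isoforms, -0.399 with the brightest probe sets only and -0.161 by single probe sets, the first 2 settings chosen after seeing the data; complex II was at -0.368 with the brightest only. Without probe sets whose names end in _x_at, _s_at or _a_at, complex III was at -0.391 and Cycs at -0.21. Atp5e, Cox4i1, Cox6a1, Ndufa1 and Ndufa13, among others, are read only by such probe sets and had no value in that setting. Signs turned for Atp5a1 (0.013), Uqcrc1 (0.0088) and Cox8b (-0.026) by quantile normalization. Without the probe sets of these suffixes they turned for Atp5a1 (0.046) and Cox8a (0.028). Of 49 respiratory chain genes given singly, 36 moved by over 1.5 times or turned sign with some array left out, and 31 did so without Control 1. The differences spanned 0 for Atp5a1 (-0.14 to 0.083), Atp5b (-0.44 to 0.11), Cox6a2 (-0.095 to 0.051), Cox6b2 (-0.28 to 0.35), Cox7a1 (-0.17 to 0.0095), Cox7a2 (-0.24 to 0.26), Cox7a2l (-0.36 to 0.065), Cox8a (-0.15 to 0.12), Cox8b (-0.13 to 0.13), Cox8c (-0.086 to 0.38), Ndufa12 (-0.21 to 0.083), Ndufa4 (-0.58 to 0.13), Ndufs3 (-0.52 to 0.0054), Ndufb4 (-0.082 to 0.22), Uqcrc1 (-0.13 to 0.12) and Ift88 (-0.064 to 0.22). The causes were not tested.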

Other observations

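The 9 probe sets that name a respiratory chain gene together with another symbol entered no comparison. Those for Ndufs6 with Ndufs6b and for Ndufs5 with its pseudogene had differences of -0.62 and -0.66 with arrays that did not overlap. The one for Ndufs6 stood at -0.18 and -0.22 in Cilia-deleted arrays, against 0.66 and 0.18 in Control arrays. Of the 2 for Ndufa11 with Ndufa11b, the brighter was at -0.23 and the dimmer at 0.15. The 2 that name Ndufa13 with Yjefn3 were at 0.18 and -0.30 with overlapping arrays, and the one for Ndufb2 with Adck2 was at -0.082.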
